A study of Mus musculus with 3 samples.

Results

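Cells of cardiac bodies (CB) were set against the mouse embryonic stem cells (mESC) from which such bodies are grown, gene by gene and cell by cell. All cells in the CB table and in the mESC table with 100000 or more counts were taken, 219 of 232 CB cells and 203 of 215 mESC cells, which makes 422 of the 622 cells of the whole series. Both cultures are male and carry an F1 genome, labelled C57BL/6 x CAST/EiJ, for which the study's methods name C57BL/6J as the maternal strain. The mESC were grown without feeders on gelatin with LIF and inhibitors that hold the naive state. The CB were grown from such cells as hanging-drop aggregates and then in a medium with ascorbic acid, and beating bodies were picked. The labels call the CB cells mature cardiac cells. The stem cells were clones, each grown from 1 cell, of several male lines, and each culture was dissociated with its own enzyme mix and time before single cells were caught on a microfluidic chip that takes cells of a limited size range. There was 1 sample per group, so no difference below has a replicate check and no p-value is given. Each sample held 3 sequencing pools, which are shown side by side. The mESC title speaks of a triplicate, but the labels do not tie a pool to a clone or to a separate culture, so pools were not used as replicates, and the pool, the clone and the dissociation cannot be told apart from the culture.

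Naive embryonic stem cells keep a network of transcription factors, among them Nanog, Esrrb and Zfp42, that holds them ready to form every tissue of the embryo. On leaving this state, cells of the heart-forming mesoderm pass through precursors marked by factors such as Gata4, Tbx5 and Isl1 before they build sarcomeres, the contractile units of muscle. A beating body in culture also holds cells that do not beat: fibroblast-like cells that lay down collagen, smooth muscle, endothelium and epithelium. In bulk sums over cells, fewer cells of a type and less RNA per cell cannot be told apart, and values over single cells are therefore given as well.

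The median depth was 1498982 counts per kept CB cell and 1649199 per mESC cell, with pool medians from 865903 to 1820927 in CB and from 1192517 to 2002982 in mESC. Mitochondrially encoded genes held 5.81% of the CB counts and 4.97% of the mESC counts. Of 24229 genes listed for CB and 22439 for mESC, 19855 were listed in both tables, and 16019 of these had at least 1 CPM (counts per 1000000 summed gene counts) in either sample. Levels are CPM of counts summed over cells, and ratios are log2 ratios of (CPM + 1), CB over mESC, which understate the change of low genes. A gene was called when its ratio reached 4-fold, a log2 ratio of 2 in size. At this limit 2140 genes were higher in CB, 13.4% of those compared, and 604 were lower, 3.77%. All CB pools lay above all mESC pools for 1782 of the higher genes (11.1%), and all lay below for 602 of the lower genes (3.76%). Without CB pool 2 there were 1025 lower genes, and with a pseudocount of 10 CPM 604 higher and 217 lower ones. Whatever the fold, the CB pools lay above all mESC pools for 29.6% of the genes compared and below them for 20.7%. The median log2 ratio over the 16019 genes was 0.29. When the samples were scaled by TMM or DESeq2 size factors this median was 0.01 or 0.03, so small log2 ratios above 0 turn below 0 under these scalings, while those below 0 keep their sign.

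The 5 marker genes lay apart between the samples in every pool. H19, an imprinted long non-coding RNA of fetal tissues (chromosome 7, 142575529 to 142578143, GRCm38), was at 3612, 2678 and 2209 CPM in CB pools 1, 2 and 3 and at 0.136, 0.0656 and 0.184 CPM in the mESC pools. Its pooled level was 2651 CPM in CB (95% counting interval 2646 to 2657) and 0.123 CPM in mESC (0.0887 to 0.165), a log2 ratio of 11.21 and the largest of all 16019 genes. Of the CB cells 98.2% had 1 or more counts of it (exact 95% interval 95.4 to 99.5%), and of the mESC cells 2.46% (0.804 to 5.65%). H19 was at 64 CPM or more in 61 of 63 cells of CB pool 1, 71 of 72 of pool 2 and 61 of 84 of pool 3, where 16 cells lay above 0 but under 16 CPM and 3 were at 0.

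Col1a2, a chain of type I collagen (chromosome 6, 4504814 to 4541544), held 2489.6, 57.2 and 3505 CPM in the CB pools against 0.5704, 0 and 0 CPM in the mESC pools. Ptn, the secreted heparin-binding growth factor pleiotrophin (chromosome 6, 36714929 to 36810220), held 821, 90.9 and 1123 CPM in the CB pools against 0.127, 0.0801 and 0 CPM in the mESC pools. The log2 ratios were 10.71 and 9.28. Both genes were lowest by far in CB pool 2 but lay above every mESC pool there. Their levels also differed between cells. Col1a2 was at 64 CPM or more in 48 of 63 cells of CB pool 1, in 13 of 72 of pool 2 and in 54 of 84 of pool 3. The remaining cells of pools 1 and 3 were not spread evenly below this: none lay between 16 and 64 CPM, 13 and 29 lay above 0 but under 16 CPM, and 2 and 1 were at 0. In pool 2 there was no such gap: 44 of 72 cells were at 0, 5 lay above 0 but under 16 CPM and 10 lay between 16 and 64 CPM. Detection at 1 or more counts, 78.5% in CB (72.5 to 83.8%) and 0.493% in mESC (0.0125 to 2.71%), therefore counts cells of the low band in pools 1 and 3. Ptn was at 64 CPM or more in 44, 23 and 55 cells of CB pools 1, 2 and 3.

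Nanog (chromosome 6, 122707489 to 122714633) was at 721, 693 and 523 CPM in the mESC pools and 2.04, 0.0531 and 0.146 CPM in the CB pools. Its pooled level was 652 CPM (649 to 654) against 0.459 CPM (0.389 to 0.537), a log2 ratio of -8.81. Detection stood at 99.01% in mESC (96.5 to 99.9%) and 6.39% in CB (3.54 to 10.5%), and 1 CB cell held 80.0% of its CB counts. Zfp42, the zinc finger protein also known as Rex1 (chromosome 8, 43295063 to 43306980), was at 639.9, 523 and 482 CPM in the mESC pools and 0.128, 5.67 and 0 CPM in the CB pools, a log2 ratio of -7.41. The highest CB pool for Zfp42 was pool 2, and 10 CB cells in all detected it. Among all pairs of 1 CB and 1 mESC cell, with a tie shared evenly, the CB cell had more Nanog in 0.558% and more Zfp42 in 0.336% of pairs. The CB cell had more H19 in 98.9% of pairs and more Col1a2 and Ptn in 89.1% of pairs each. Most called genes were less far apart. Over the 2140 higher genes the median was 58.2% of pairs, with 25 genes at 90% or more and 1237 under 60%. For the 604 lower genes the median was 12.7%, and 211 had 90% or more of pairs in the direction of the ratio. Across all 16019 genes compared the median was 44.1%, although their median log2 ratio was above 0.

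**Figure D1:**
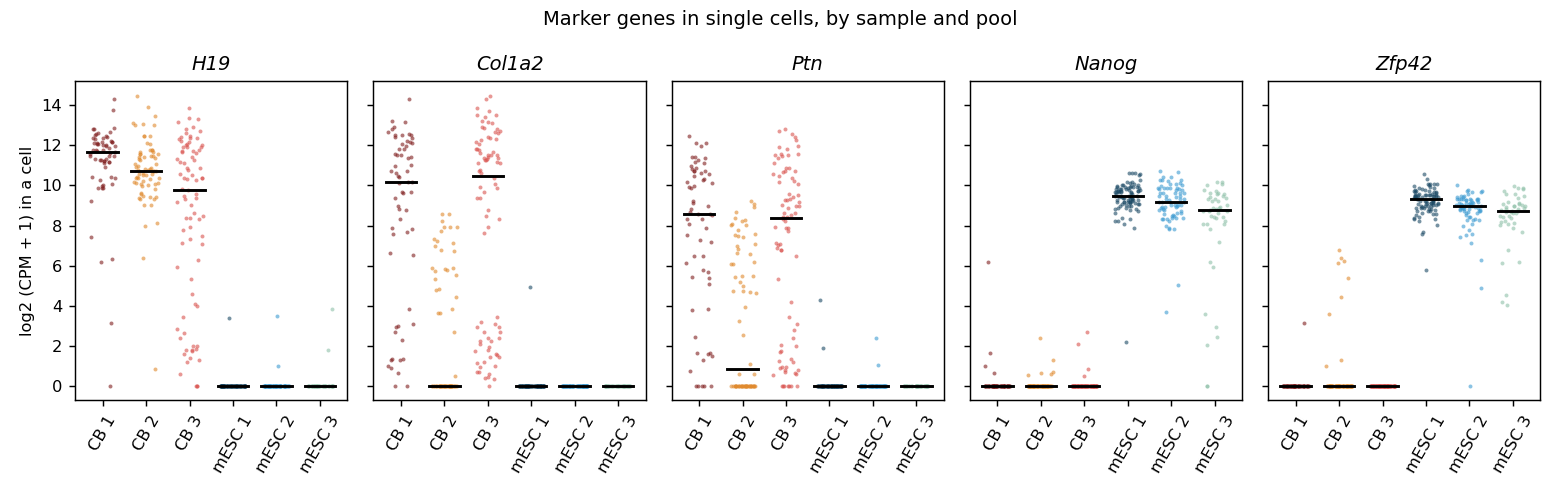
Level of the 5 marker genes in each of the 219 CB and 203 mESC cells, as log2 (CPM + 1) on the vertical axis, with 1 column of points per pool and a black bar at the pool median. H19 is high in most cells of each CB pool, Col1a2 has a high and a low band in CB pools 1 and 3 with no cell between 16 and 64 CPM, Col1a2 and Ptn have medians near 0 in CB pool 2, and Nanog and Zfp42 are high in mESC only.

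The bases just before the start sites of 4 markers are shown because the stretches before the pluripotency genes hold the octamer core TTTGCAT, a sequence that Oct4 (Pou5f1) and its relatives bind, and that before Nanog also holds CATTGT, a core of Sox factor sites. The RefSeq promoter table for GRCm38.p6 held windows for Nanog (2 start sites, of which the second is shown), Zfp42, Col1a2 and Ptn. Each run is the 250 bases before the start, 5′ to 3′ on the gene's strand, at chr6:122707315-122707564 (plus strand) for Nanog, chr8:43307010-43307259 (minus) for Zfp42, chr6:4505368-4505617 (plus) for Col1a2 and chr6:36810180-36810429 (minus) for Ptn. Capitals mark matches on either strand to TTTGCAT or CATTGT.
Nanog: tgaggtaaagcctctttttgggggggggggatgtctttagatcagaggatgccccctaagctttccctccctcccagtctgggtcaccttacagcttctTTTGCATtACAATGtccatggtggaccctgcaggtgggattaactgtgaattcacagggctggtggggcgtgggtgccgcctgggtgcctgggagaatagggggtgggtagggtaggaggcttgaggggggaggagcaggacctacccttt
Zfp42: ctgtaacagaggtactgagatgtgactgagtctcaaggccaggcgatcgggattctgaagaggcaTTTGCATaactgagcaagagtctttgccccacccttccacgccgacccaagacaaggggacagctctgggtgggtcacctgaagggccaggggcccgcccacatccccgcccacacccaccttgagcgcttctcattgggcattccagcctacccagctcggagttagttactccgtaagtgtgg
Col1a2: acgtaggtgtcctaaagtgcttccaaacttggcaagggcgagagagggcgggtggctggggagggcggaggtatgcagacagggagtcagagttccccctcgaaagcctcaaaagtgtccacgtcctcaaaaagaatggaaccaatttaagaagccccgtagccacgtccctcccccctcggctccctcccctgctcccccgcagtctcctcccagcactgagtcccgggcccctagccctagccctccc
Ptn: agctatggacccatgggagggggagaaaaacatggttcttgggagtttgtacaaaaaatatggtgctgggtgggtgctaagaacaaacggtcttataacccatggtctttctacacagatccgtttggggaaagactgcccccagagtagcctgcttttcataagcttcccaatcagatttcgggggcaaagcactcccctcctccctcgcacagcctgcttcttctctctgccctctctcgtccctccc

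In Nanog the octamer core began 151 bases before the start and CATTGT, read on the other strand as ACAATG, began 143 bases before it, with 1 base between them. In Zfp42 the octamer core began 185 bases before the start. The printed stretches of Col1a2 and Ptn had no match to either, which says only that these letters are not in this window. TTTGCAT was found, on either strand, in 6.14% of 505 promoter windows of 300 bases (250 before to 50 after a start) of genes at least 4-fold lower in CB, in 3.87% of 2066 windows of higher genes and in 3.34% of 11281 windows of genes within 4-fold. It was found in 4.63% of all 32851 windows in the table. CATTGT was found in 8.91%, 8.28% and 7.38% of the windows of lower, higher and other genes and in 12.6% of all windows. The TATA box core TATAAA was found in 10.3%, 9.24% and 6.65%, against 13.6% of all windows. Windows of lower genes held a median of 13 CpG dinucleotides, those of higher genes 17 and those of genes within 4-fold 21, and 24.8%, 18.1% and 11.5% of them held 5 or fewer. At least 1 window was matched by symbol for 417 of the 604 lower genes and 1581 of the 2140 higher genes. These are descriptions with no test.

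The naive pluripotency network was low or close to 0 in CB, with a few members kept. Of 18 transcription factors listed, 15 could be compared, and 9 of these were at least 4-fold lower in CB, each with every CB pool below every mESC pool, while none was 4-fold higher (3.77% of all genes were lower). Their median log2 ratio was -3.96. With TMM or DESeq2 factors 11 were lower. Besides Nanog and Zfp42, the orphan nuclear receptor Esrrb had 0.101 against 134 CPM (log2 ratio -6.94), Tfcp2l1, a factor of self-renewal under LIF, had 5.87 against 368 CPM (log2 ratio -5.75), and Nr0b1, another nuclear receptor of the stem cell network, had 1.11 against 119.8 CPM (log2 ratio -5.84). Esrrb was detected in 1 CB cell, 0.457% of cells, against 99.01% of mESC cells. Prdm14, which represses differentiation genes, had 0.618 against 77.04 CPM (log2 ratio -5.59).

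The members within 4-fold were mostly factors that other tissues also use. Sox2 had 27.8 against 100.4 CPM (log2 ratio -1.82) and passed 4-fold under TMM and DESeq2 factors. Klf2 had 80.4 against 183 CPM (log2 ratio -1.18) and Klf5 75.01 against 144 CPM (log2 ratio -0.93). Klf4 was the only member with a ratio above 0, at 129 against 56.8 CPM (log2 ratio 1.18), and its pools overlapped. Zfp281 was level between the samples, at 59.1 and 66.03 CPM. The 3 other members had no value in CB, since the CB table does not list them: Pou5f1, the Oct4 gene, at 151 CPM in mESC, where 97.04% of cells detected it, and Foxd3 and Gbx2. Each table lists only genes that reach at least 1 count in some cell, and a gene outside a table was not set to 0.

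Counted within cells, the network separated the samples. At least 9 of the 18 factors reached 10 or more counts in 192 of 203 mESC cells, 94.6% (exact interval 90.5 to 97.3%). No CB cell among 219 reached 10 or more counts for 50% of the 15 factors its table lists, which allows a share of up to 1.67%. The CB cells had a median of 3 of the factors at this level and at most 7.

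Genes tied to pluripotency but not part of the core network were lower too. Of 18 members compared, 12 were at least 4-fold lower, all with separate pools, and 1 was higher. Dppa5a, an RNA-binding protein of stem and germ cells, was the most abundant gene listed for mESC alone, at 6737, 8757 and 8297 CPM in its pools and detected in every one of the 203 cells. Tdh, the threonine dehydrogenase on which mouse stem cells depend, had 11.1 against 751 CPM (log2 ratio -5.96), with 0, 28.4 and 0 CPM in the CB pools. Tdgf1, the Nodal co-receptor Cripto, had 7.85 against 585 CPM (log2 ratio -6.05), and Fbxo15, a target of Oct4 and Sox2, had 1.09 against 325 CPM (log2 ratio -7.28). The Nodal inhibitor Lefty2 had 2.201 against 194 CPM (log2 ratio -5.93) and Nodal itself 8.22 against 80.3 CPM (log2 ratio -3.14). The exception was Socs3, the feedback inhibitor of LIF signalling, at 48.6 against 7.05 CPM (log2 ratio 2.62). Its CB pools held 55.3, 7.35 and 83.5 CPM and its mESC pools 4.91, 6.79 and 9.71 CPM, so that pool 2 lay within the mESC range. The LIF receptor chains Lifr and Il6st, at 46.8 and 89.8 CPM in CB and 22.8 and 37.2 CPM in mESC, stayed within 4-fold.

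The genes with the lowest ratios also held germline and zinc finger genes. Calcoco2, an autophagy receptor, was at 976, 454 and 400.0 CPM in the mESC pools and 0, 0 and 0.848 CPM in the CB pools (log2 ratio -8.79). Ooep, a protein of the maternal complex of oocytes, had 0.234 against 482 CPM (log2 ratio -8.61), Tdrd12, of the piRNA pathway, 0.169 against 192 CPM (log2 ratio -7.37), and Tex19.1, which restrains retrotransposons in germ cells, 1.06 against 238 CPM (log2 ratio -6.86). Morc1, another silencer of retrotransposons, had 0.175 against 147 CPM (log2 ratio -6.97). The KRAB zinc finger genes Zfp534, Zfp980 and Zfp988 had log2 ratios of -6.84, -6.93 and -6.98, with mESC levels of 141, 150.3 and 191 CPM. As these belong to a family of near copies, reads could be split among them and their single values are uncertain. Of the germline list of 23 genes, 10 could be compared, of which 5 were lower and 1 was higher, and 10 more were listed for mESC alone. Without mESC pool 1, with TMM scaling or without the highest cell of each gene, 8 were lower. The higher gene was Zbed3, an Axin-binding Wnt regulator, at 41.03 against 4.06 CPM.

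Genes of the extracellular matrix were higher in CB by a wide margin. All 6 fibrillar and associated collagen chains that both tables list were higher, 5 of them with separate pools, with a median log2 ratio of 5.97 (13.4% of all genes were higher). Col1a1 had 1146, 30.3 and 1826 CPM in the CB pools and 0.914, 0.728 and 1.82 CPM in the mESC pools. The remaining 8 chains on the list were listed for CB alone. Among them Col3a1, the chain of type III collagen, was at 4049, 151 and 3345 CPM in CB pools 1, 2 and 3 and was the most abundant gene listed for CB alone. Summed over the chains each table lists, 14 for CB and 6 for mESC, the collagens held 9968, 367 and 11755 CPM in the CB pools and 7.99, 15.02 and 8.33 CPM in the mESC pools. CB pool 2 held far less collagen than the other 2 but more than any mESC pool.

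Proteins bound to these fibres and enzymes that process them were likewise lowest in CB pool 2. Of 14 proteoglycans and glycoproteins compared, 12 were higher, 9 with separate pools (median log2 ratio 4.61). Bgn, the small proteoglycan biglycan, had 825, 30.6 and 1443 CPM in the CB pools, Ogn, osteoglycin, 181, 2.47 and 875 CPM, and Mfap4, a protein of elastic fibres, 368, 43.3 and 973 CPM. Fbn1, fibrillin-1, was more even, at 219, 111 and 255 CPM. Lum and Dcn, the proteoglycans lumican and decorin, were listed for CB alone, at 2576, 104 and 3009.9 and 2817, 2.999 and 1739.6 CPM. Of 15 enzymes and chaperones of collagen, 9 were higher. Bmp1, which trims procollagen, had 48.1 against 0.219 CPM (log2 ratio 5.33), and Loxl1, a cross-linking enzyme, 65.1 against 1.26 CPM (log2 ratio 4.87). Serpinh1, the collagen chaperone, was even over the pools, at 175, 126 and 175 CPM in CB against 15.5, 9.21 and 9.56 CPM in mESC. Of 12 matrix metalloproteinases and inhibitors, 10 were higher, all with separate pools, among them Mmp2 with 515 against 3.29 CPM (log2 ratio 6.91) and its inhibitor Timp2 with 312 against 1.64 CPM (log2 ratio 6.89). Basement membrane genes were less far apart, 5 of 14 higher with a median of 1.48, led by the type IV collagens Col4a2 and Col4a1 at log2 ratios of 6.84 and 6.12. Sparc was already at 638 CPM in mESC and reached 3290.1 CPM in CB.

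Markers of mesenchyme and fibroblasts were higher as a group: 15 of 17 members compared, all 15 with separate pools, and none lower, with a median log2 ratio of 4.21 and pool pair medians from 3.37 to 4.99. Cdh11, the mesenchymal cadherin, had 423, 174 and 491 CPM in the CB pools and 0.0485, 0.0146 and 0.117 CPM in mESC. Pdgfra, a PDGF receptor of fibroblasts and mesoderm, had 188, 30.04 and 276 CPM, and S100a6 623, 27.4 and 1214 CPM. At least 50% of the 23 markers in the CB table reached 10 counts in 80 of 219 CB cells, 36.5% (30.1 to 43.3%), made up of 35 cells of pool 1, 10 of pool 2 and 35 of pool 3. By the same count over 14 collagen chains, 97 cells were positive, 42, 3 and 52 of the pools, and 71 cells were positive for both lists. Smooth muscle genes were higher for 12 of 13 members (11 with separate pools, median 3.69). Tagln, an actin-binding protein, had 958, 240.0 and 345 CPM in the CB pools, Myl9, a myosin light chain, 398, 132 and 405 CPM, and Acta2, smooth muscle actin, listed for CB alone, 1813, 670.0 and 558 CPM. A cell could hold both programmes: 39 of the 53 cells with the smooth muscle genes also had the mesenchymal ones.

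Genes of the cardiac sarcomere, which the label of these cells points to, were present in few cells. Of 17 members compared, 13 were at least 4-fold higher and none was lower, with a median log2 ratio of 3.26, but in only 5 were all CB pools above all mESC pools. The median single cell went the other way, with 1.75 CPM of the list in CB and 53.5 CPM in mESC. It had 0 members at 10 or more counts in CB and 2 in mESC. Summed over the members each table lists, CB pool 3 held 37.7 CPM, below the mESC pools at 93.8, 65.8 and 63.0 CPM. Tnnt2, cardiac troponin T, had 40.4 against 2.21 CPM (log2 ratio 3.69) and was detected in 15.5% of CB cells. Tnnc1, cardiac troponin C, had 32.7, 77.8 and 2.24 CPM in the CB pools. Myl7, the atrial light chain, had 13.8, 159 and 0.633 CPM, Myh7, the slow myosin heavy chain, 1.47, 51.8 and 1.52 CPM, and Myh6, the fast one, 6.75, 22.97 and 0 CPM. Actc1, cardiac actin, was listed for CB alone, at 133, 490.4 and 1.28 CPM, and was detected in 15.1% of cells. In each of these genes pool 2 held the most, and pool 3 was lowest or within 0.1 CPM of the lowest. At least 50% of the 20 genes reached 10 counts in 5 of 219 cells, 2.28% (0.745 to 5.25%): 1 in pool 1, 4 in pool 2 and none in pool 3. One pool 2 cell held 60.9% of all CB counts of the list and 10 cells held 92.8%. Without CB pool 2, 6 members were higher, 2 were lower and the median was 1.24. Without the highest cell of each gene, 11 of 15 were higher and the median was 2.45.

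Taken as a list, counts of the factors that specify the cardiac lineage came from more cells. The highest cell held 3.16% of the CB counts of their list, against 60.9% for the sarcomere genes. At least 50% of the 18 factors in the CB table reached 10 counts in 5 of 219 cells, 1, 4 and 0 of the pools. Of 10 compared, 8 were higher and 6 of these had separate pools (median 3.61). Gata6 had 68.9, 42.2 and 5.94 CPM in the CB pools and was detected in 33.3% of cells. Isl1, of the second heart field, had 20.9, 65.1 and 19.2 CPM, and Hand2 24.8, 15.9 and 14.1 CPM. Tbx5, with 2.51 against 0.0997 CPM (log2 ratio 1.67), and Tbx20, with 17.1 against 4.25 CPM (log2 ratio 1.79), stayed within 4-fold on the log2 (CPM + 1) scale. Of 10 genes for calcium handling and ion channels, 6 were higher, among them Slc8a1, the sodium-calcium exchanger, with 50.7, 54.1 and 18.8 CPM in the CB pools, and Gja1, connexin 43, with 137, 69.7 and 244 CPM, which fibroblasts express too.

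The endothelial and endodermal programmes were seen in a minority of CB cells, nearly all from pool 2. Of 15 endothelial genes compared, 10 were higher (13.4% of all genes were), but only 2 had separate pools. Plvap, a protein of endothelial fenestrae, had 1.65, 191 and 1.33 CPM in the CB pools, Esam 3.85, 102 and 1.04 CPM and Icam2 0.706, 136 and 0 CPM. Kdr, the VEGF receptor, listed for CB alone, had 16.4, 278 and 7.404 CPM. At least 50% of the 20 genes reached 10 counts in 22 cells, all in pool 2, 30.6% of it (20.2 to 42.5%). None of these 22 cells had the mesenchymal, collagen, smooth muscle or epithelial programme. Pecam1, an endothelial marker that stem cells also make, had 0.0321, 58.4 and 0.0139 CPM in the CB pools and 53.6, 64.5 and 53.1 CPM in the mESC pools, so that pool 2 lay within the mESC range. Without CB pool 2, 3 members were higher and 2 lower, and the median went from 3.16 to 0.56.

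Of 13 genes of endoderm and apolipoproteins, 10 were higher (13.4% of all genes were), 3 with separate pools. Apoa1, the main protein of HDL, had 2.81, 539.8 and 0.132 CPM in the CB pools, Rbp4, the carrier of retinol, 22.4, 599 and 21.03 CPM, and Afp, alpha-fetoprotein, listed for CB alone, 8.002, 589 and 0 CPM. The programme was seen in 7 CB cells, 6 of them in pool 2, and 10 cells held 73.9% of its counts. Without CB pool 2, 3 of 7 genes compared were higher, 2 were lower and the median went from 3.78 to 0.76. Apoa2, Apoc2 and Apom, with log2 ratios of 4.14, 4.77 and 3.03, were below mESC without this pool, at -2.67, -1.51 and -3.56. They were detected in 11.9%, 2.74% and 6.85% of CB cells and in 71.9%, 9.85% and 55.7% of mESC cells, so that the CB counts of these genes came from fewer cells.

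Epithelial genes marked a further group, largest in pool 3. Of 20 keratins and junction genes compared, 12 were higher, 11 with separate pools, and none was lower (median 2.53, with 13.4% of all genes higher). The median single cell held less of the list in CB, 239 CPM against 634 CPM in mESC. It had 2 members at 10 or more counts in CB and 8 in mESC, and the upper quartile of CB cells was 4075 CPM. Krt19 had 284, 53.5 and 704 CPM in the CB pools, and Upk3bl, of the uroplakin family, 228, 3.19 and 883 CPM. Krt8 was even, at 178, 174 and 187 CPM. Listed for CB alone, Upk1b, another uroplakin, had 708, 0.0683 and 1243 CPM, Krt4 340.5, 0 and 874 CPM and Cyp2f2, a cytochrome P450 of airway epithelium, 78.1, 0 and 1976 CPM. The programme was seen in 62 CB cells, 12, 17 and 33 of the pools, and in 29 of 203 mESC cells, in which the list holds junction genes that stem cells share. In CB, 7 of the 62 cells also had the mesenchymal programme. Of the genes with the steepest drop between pools, those highest in pool 3 were Aldh3a1, at 0.369, 0 and 219 CPM, Cpxm2, at 0, 0 and 209.7 CPM, and Aspn, the matrix protein asporin, at 16.7, 0.00759 and 628 CPM.

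**Figure D2:**
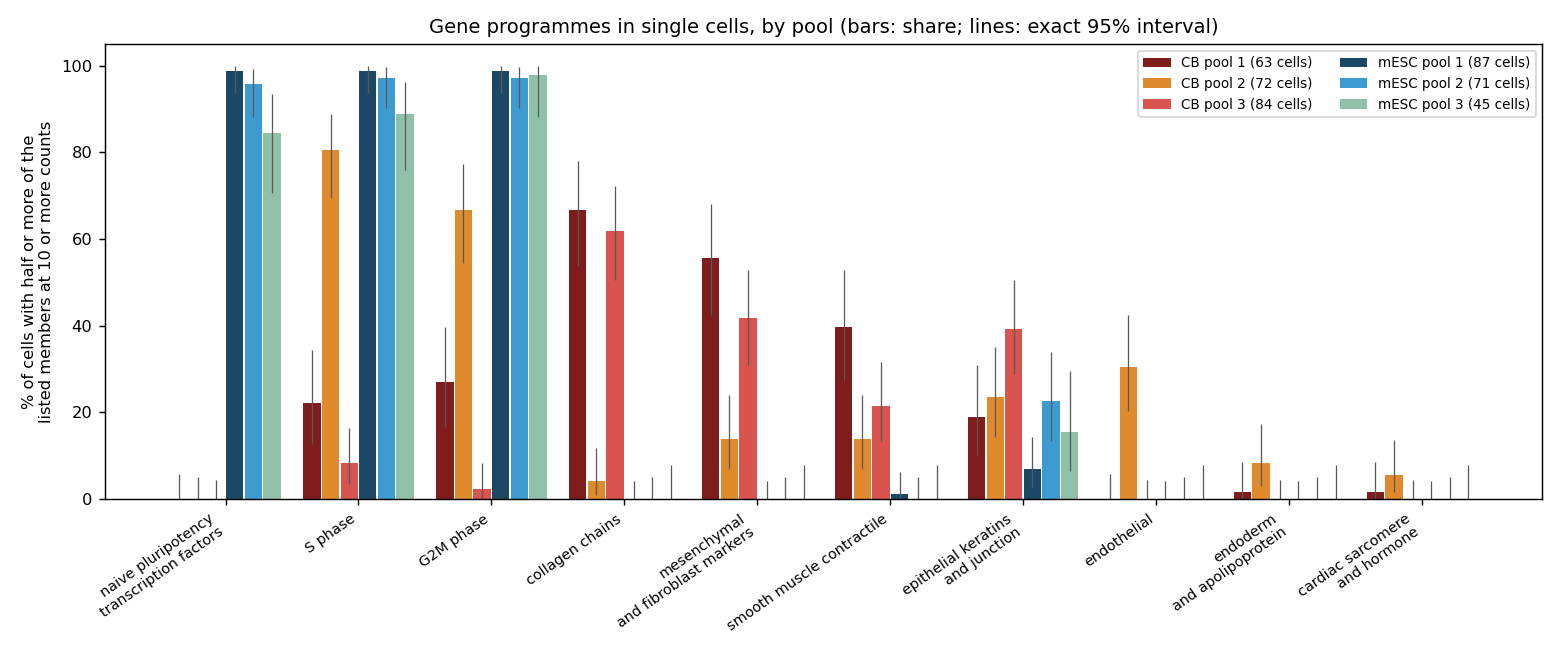
Percent of the cells of each pool in which at least 50% of the members of a list (of those the sample's own table lists) reached 10 or more counts. Vertical lines are exact 95% intervals. The naive factors were positive in 0 of 219 CB cells and 192 of 203 mESC cells, the cell cycle lists are highest in mESC and next in CB pool 2, collagen and mesenchymal cells came mostly from CB pools 1 and 3, and endothelial cells from pool 2.

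Cell cycle genes had lower levels in CB, by an amount that differed between the CB pools. All 24 S phase genes and 23 of 24 G2M phase genes had a ratio below 0, with medians of -1.81 and -1.49. At least 4-fold lower were 8 and 4 of them (3.77% of all genes were). Cdc6, which loads the replicative helicase, had 158, 137 and 97.3 CPM in the mESC pools and 8.99, 50.7 and 1.29 CPM in the CB pools. Rrm2, of ribonucleotide reductase, had 554, 595 and 530.2 against 85.5, 224 and 11.7 CPM, and Ccnb1, the mitotic cyclin B1, 732, 744 and 648 against 194, 289.5 and 28.2 CPM. CB pool 2 lay nearest to mESC and pool 3 farthest. At least 50% of the S phase genes reached 10 counts in 195 of 203 mESC cells and in 14 of 63, 58 of 72 and 7 of 84 cells of the CB pools. For G2M these were 199 of 203 cells and 17, 48 and 2. The numbers past 4-fold rest on the pools: 4, 21 and 0 S phase genes and 7, 18 and 0 G2M genes were lower without CB pool 1, 2 and 3, and 4 S phase genes were lower without mESC pool 1. With TMM scaling they were 13 and 7.

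Regulators of the entry into the cycle differed one by one. Ccnd2, cyclin D2, was at 447, 262 and 559 CPM in the CB pools and 0.371, 0.1602 and 1.29 CPM in the mESC pools (log2 ratio 8.09), the highest ratio among 19 such genes, while cyclin D1, Ccnd1, had 58.6 against 78.6 CPM (log2 ratio -0.42) and D3, Ccnd3, 372 against 613 CPM (log2 ratio -0.72). Cyclin E1, Ccne1, was lower, at 35.9 against 249.4 CPM (log2 ratio -2.76). The inhibitors Cdkn1c and Cdkn1b were higher, with 34.5 against 0.297 CPM (log2 ratio 4.77) and 11.2 against 1.32 CPM (log2 ratio 2.40), as was the growth arrest gene Gas1, with 83.5 against 2.93 CPM (log2 ratio 4.43). Cdkn1a, the p21 gene, was level at 247 and 209 CPM.

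Imprinted genes, which are expressed from 1 parental copy and many of which act in fetal growth, were higher for 19 of 27 members compared, all 19 with separate pools, and lower for 1, with a median log2 ratio of 3.35 and pool pair medians from 2.25 to 3.96. Mest had 2321 against 84.9 CPM (log2 ratio 4.76), Peg3 1188 against 87.2 CPM (log2 ratio 3.75), Plagl1 1220.5 against 139 CPM (log2 ratio 3.13) and Gnas 1077 against 83.2 CPM (log2 ratio 3.68). Nnat, neuronatin, was nearly silent in mESC, at 0.0181, 0.0364 and 0.0872 CPM in its pools, and at 441, 291 and 208 CPM in the CB pools. Igf2, the fetal growth factor next to H19, had 42.3, 3.097 and 282 CPM in the CB pools and was detected in 21.005% of CB cells. Dlk1, an inhibitor of differentiation, was highest in pool 1, at 769, 12.9 and 34.6 CPM, and Meg3, from the same cluster, had 299.5 against 20.4 CPM (log2 ratio 3.82). The lower gene was Grb10, an inhibitor of growth factor receptors, with 1.61 against 11.8 CPM (log2 ratio -2.29), and Snrpn, with 123 against 208 CPM (log2 ratio -0.76), stayed within 4-fold. The summed counts do not separate the parental copies.

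In several growth factor families part of the members were higher and the others stayed within 4-fold. In the BMP list 11 of 18 members were higher (13.4% of all genes were), all with separate pools, and none was lower. Its ligand Bmp4 had 98.9, 27.6 and 122 CPM in the CB pools, and the Id genes, targets of BMP signals that block differentiation factors, were even over the CB pools: Id1 had 295, 279 and 332 CPM, Id2 479, 631 and 592 CPM and Id3 651, 787 and 965 CPM, against 20.9, 4.26 and 8.03, 29.3, 41.6 and 49.3 and 81.1, 14.2 and 6.69 CPM in the mESC pools. Grem1, a BMP antagonist, was found mostly in pool 3, at 5.53, 2.46 and 96.3 CPM.

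For the lists that follow, the share of all genes that were higher was 13.4%. In the TGF-beta list 10 of 16 were higher, all with separate pools, with the ligand Tgfb2 at 124 against 0.245 CPM (log2 ratio 6.66) and the receptor Tgfbr2 at 95.7 against 0.365 CPM (log2 ratio 6.15). In the Wnt list 13 of 22 were higher (11 with TMM or DESeq2 factors), 11 with separate pools, and none was lower. The receptor Fzd1 had 155 against 0.707 CPM (log2 ratio 6.51), the ligand Wnt4 84.1 against 0.125 CPM (log2 ratio 6.24) and the secreted modulator Sfrp2 132 against 1.15 CPM (log2 ratio 5.95). In the IGF list 10 of 15 were higher, all with separate pools: the ligand Igf1 had 303, 89.2 and 502 CPM in the CB pools and the binding proteins Igfbp4, Igfbp5 and Igfbp7 1007, 358 and 458 CPM. Igf2r, the receptor that clears Igf2, was below mESC in each pool, with 6.67 against 19.6 CPM (log2 ratio -1.42). In the Notch list 6 of 13 were higher, all with separate pools, among them the target Hey1, highest in pool 2 at 12.2, 86.7 and 11.9 CPM. Of 13 retinoic acid genes 10 were higher (8 with TMM or DESeq2 factors), 6 with separate pools, with the receptor Rarb at 63.7 against 0.412 CPM (log2 ratio 5.52). Among heparin-binding factors and partners, 7 of 11 were higher, 6 with separate pools, including Ptn and Gpc3, a glypican of growing tissue, at 581 against 38.8 CPM (log2 ratio 3.87).

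Positional factors were higher for part of the list. Of 10 genes of the Hox list compared, 6 were higher, all with separate pools (13.4% of all genes were higher). Of the 26 listed genes, 7 were listed for CB alone and 3 for mESC alone. Without the filter on low genes 6 of 15 were higher and the median was 1.05 in place of 2.34. Among the higher genes were the Hox partners Meis1 and Meis2, with 61.6 against 1.01 CPM (log2 ratio 4.96) and 152 against 14.3 CPM (log2 ratio 3.32). Meis2 was detected in 78.5% of CB cells and Hoxa3 in 6.39%.

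Immediate early genes, which cells switch on within minutes of a stimulus and which handling of cells is known to raise, were all higher. Each of the 15 members compared passed 4-fold, 13 with separate pools, with a median log2 ratio of 5.2005. Egr1 had 1661, 131 and 1841 CPM in the CB pools and 9.66, 0.1602 and 1.64 CPM in the mESC pools, Fos 2529, 355 and 3385 against 28.4, 10.2 and 10.3 CPM, Junb 466, 65.2 and 769.7 against 7.098, 4.62 and 3.43 CPM, and Jun 209, 116 and 432 against 2.47, 0.612 and 0.543 CPM. Summed over the members each table lists, 3 of them listed for CB alone, the CB pools held 8018, 1758 and 11211 CPM and the mESC pools 465, 290 and 268 CPM. Pool 2 was again the CB pool nearest to mESC. Fos was detected in 93.6% of CB cells and 25.6% of mESC cells. The smallest differences were in Jund, with 149.6 against 35.9 CPM (log2 ratio 2.03), and Myc, with 20.3 against 3.74 CPM (log2 ratio 2.17). The 2 cultures were dissociated with different enzyme mixes and times, so the culture and its dissociation cannot be told apart for these genes. With TMM scaling, the same weight for every cell, or without CB pool 3, 13 of 15 passed 4-fold.

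Among genes of the basic machinery of the cell, ribosomal and mitochondrially encoded ones stayed within 4-fold. This held for all 28 cytosolic ribosomal protein genes (median -0.43) and all 13 mitochondrially encoded genes (median 0.34). Nuclear genes of oxidative phosphorylation summed to 7001 CPM over CB against 13559.7 CPM over mESC, and glycolytic genes to 7234 against 12932 CPM. All CB pools lay below all mESC pools for 17 of the 23 former and 9 of the 20 latter genes (20.7% of all genes). Of the 23, 22 had a ratio below 0 (median -0.68, and -0.97 with TMM scaling), and 2 passed 4-fold: Cox5a, with 196 against 899 CPM (log2 ratio -2.19), and Cox7a1, an isoform known from muscle and heart, with 3.66 against 42.7 CPM (log2 ratio -3.23). Of 20 glycolytic enzymes and transporters, 2 were lower (3.77% of all genes were): Pfkp, the platelet form of phosphofructokinase, with 52.1 against 324 CPM (log2 ratio -2.61), and Slc2a3, the glucose transporter GLUT3, with 79.6 against 409.6 CPM (log2 ratio -2.35). Without CB pool 2, 4 were lower and 1 was higher. Among 18 cytoskeletal and reference genes, 2 were higher (13.4% of all genes were): Tmsb4x, which binds actin monomers, at 2808 against 302 CPM, and Tuba1a at 1110.1 against 241 CPM. The common reference genes Gapdh and Hprt were lower within 4-fold, at log2 ratios of -1.10 and -1.50.

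Genes of DNA methylation had lower levels in CB for 8 of 11 members, of which 3 passed 4-fold, while 1 was 4-fold higher (3.77% of all genes were lower and 13.4% higher). Their median log2 ratio was -0.82 (-1.07 with TMM scaling), and the medians of the pool pairs ran from -1.37 to -0.19. Dnmt3l, the cofactor of the de novo enzymes, had 0.249 against 24.2 CPM (log2 ratio -4.34), Tet1 had 36.2 against 248.8 CPM (log2 ratio -2.75), and Uhrf1, which guides maintenance methylation, had 41.5 against 179 CPM (log2 ratio -2.08). Tet3 went the other way, with 69.7 against 7.97 CPM (log2 ratio 2.98). Of 20 Polycomb and chromatin proteins, 2 were lower and 2 higher (3.77% and 13.4% of all genes were). Eed and Cbx7 were lower, with 64.7 against 325 CPM (log2 ratio -2.31) and 7.96 against 35.6 CPM (log2 ratio -2.03), and Smarca2, the BRM ATPase, was higher, with 124 against 9.004 CPM (log2 ratio 3.65). The median of the Polycomb list was -0.15, and its sign turned with the same weight for every cell (0.10) or without CB pool 3 (0.03). Without CB pool 2, 7 were lower.

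**Figure D3:**
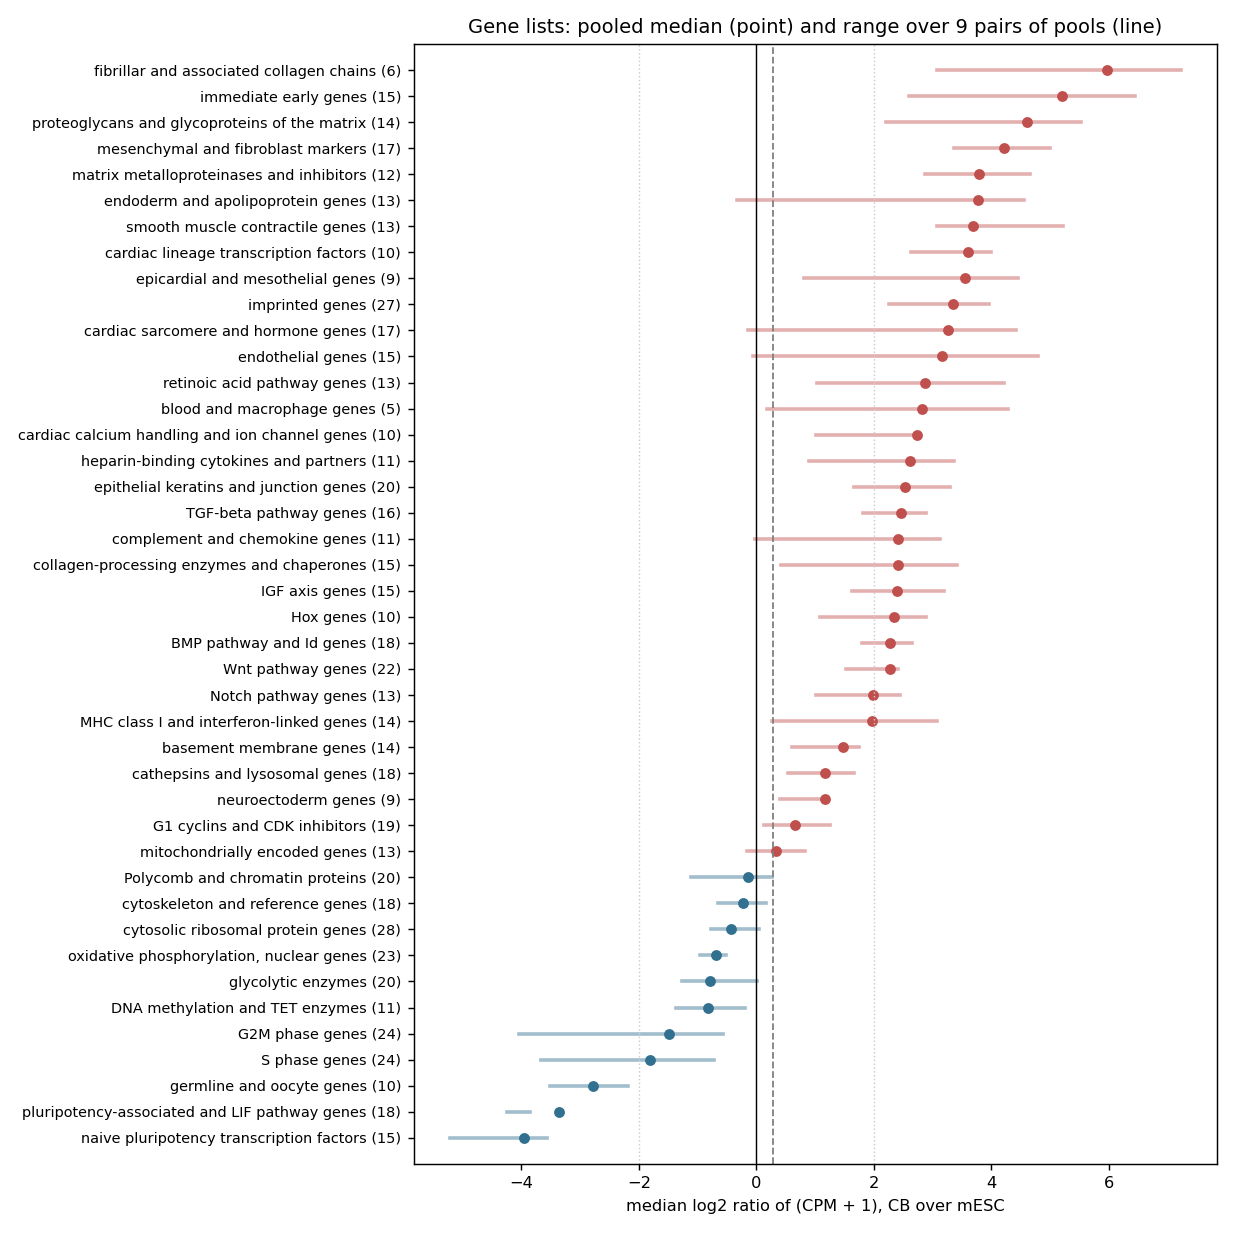
Median log2 ratio of (CPM + 1), CB over mESC, of each of 42 gene lists, with the number of members compared in parentheses. Points are the pooled samples, lines run over the medians of the 9 pairs of a CB and an mESC pool, the dashed line is the median of all 16019 genes (0.29) and the dotted lines mark 4-fold. The pluripotency lists lie lowest and the collagens and immediate early genes highest, and the lines of 9 lists cross 0, those of endoderm, cardiac sarcomere and endothelium among them.

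The genes of the 2 directions differed in how many cells carried them. A higher gene was detected in a median of 26.9% of CB cells, a lower gene in a median of 84.7% of mESC cells. In the sample where they were low, the medians were 7.88% of mESC cells and 6.39% of CB cells. At 10 or more counts the medians in the high sample were 21.005% and 69.0%. Of the 604 lower genes, 250 were detected in 90% or more of mESC cells, and of the 2140 higher genes, 44 were detected in 90% or more of CB cells and 1010 in under 25%. A single CB cell held at least 50% of the counts of 78 higher genes, and a single mESC cell held as much of 3 lower genes. The gap was also present at matched level. Between 50 and 200 CPM in the high sample, 496 higher genes were detected in a median of 53.9% of CB cells and 190 lower genes in a median of 94.1% of mESC cells. Between 200 and 1000 CPM the medians were 79.9% (110 genes) and 99.0% (76 genes). Genes within 4-fold showed part of the same gap. Those at 50 to 200 CPM in CB were detected in a median of 68.0% of CB cells, and those at 50 to 200 CPM in mESC in 95.1% of mESC cells.

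**Figure D4:**
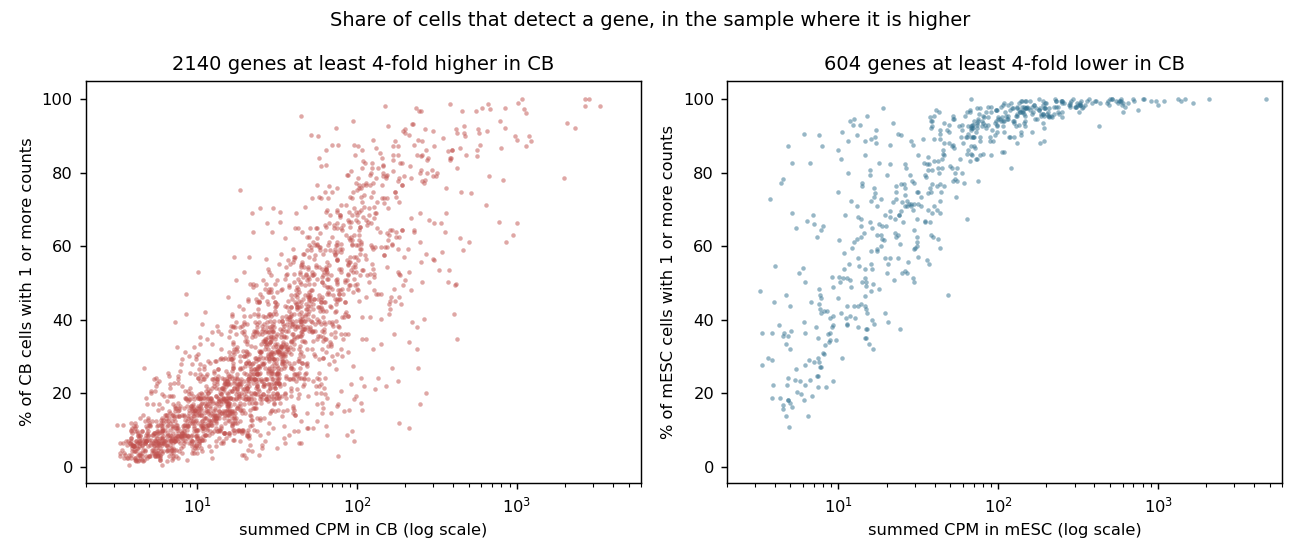
Percent of cells with 1 or more counts against the summed CPM (log scale) in the sample where a gene is higher, for the 2140 genes at least 4-fold higher in CB (left, CB cells) and the 604 genes at least 4-fold lower in CB (right, mESC cells). At equal level the right-hand points lie higher: between 50 and 200 CPM the medians are 53.9% and 94.1%.

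The CB pools also differed among themselves. Of the higher genes, 910 were at least 4-fold above the pooled mESC level in all 3 CB pools, 868 in 2 pools and 362 in 1 pool, and of the latter 27 passed in pool 1 alone, 139 in pool 2 alone and 196 in pool 3 alone. Of the lower genes 354 passed in all 3 pools, 221 in 2 and 29 in 1. CB pools differed from each other by 4-fold at 1381 genes (pools 1 and 2), 1038 genes (1 and 3) and 2104 genes (2 and 3), and mESC pools at 60, 195 and 113 genes. The 9 comparisons of a CB pool with an mESC pool each gave more genes higher in CB, 1843 to 2588, than lower, 690 to 1353.

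Cells of CB were less alike than stem cells. The median Spearman correlation of log2(CPM + 1) between 2 cells, over 16019 genes that share libraries and depth, was 0.68 within mESC, 0.41 within CB and 0.41 between a CB and an mESC cell. CB pool 2 was the nearest to mESC, with medians of 0.47 to 0.49 to the mESC pools against 0.49 among its own cells, and pool 3 was the farthest, with 0.36 to 0.38. By its single nearest neighbour, every one of 219 CB and 203 mESC cells lay closest to a cell of its own sample, and 168 CB and 139 mESC cells to one of their own pool. After each cell was thinned to 100000 counts, a CB cell detected a median of 5176 genes and an mESC cell 7260. Pool medians were 5143, 5699 and 4544.5 in CB and 7220, 7432 and 7082 in mESC and did not overlap between the samples. Without thinning the medians were 6745 and 9582 genes.

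**Figure D5:**
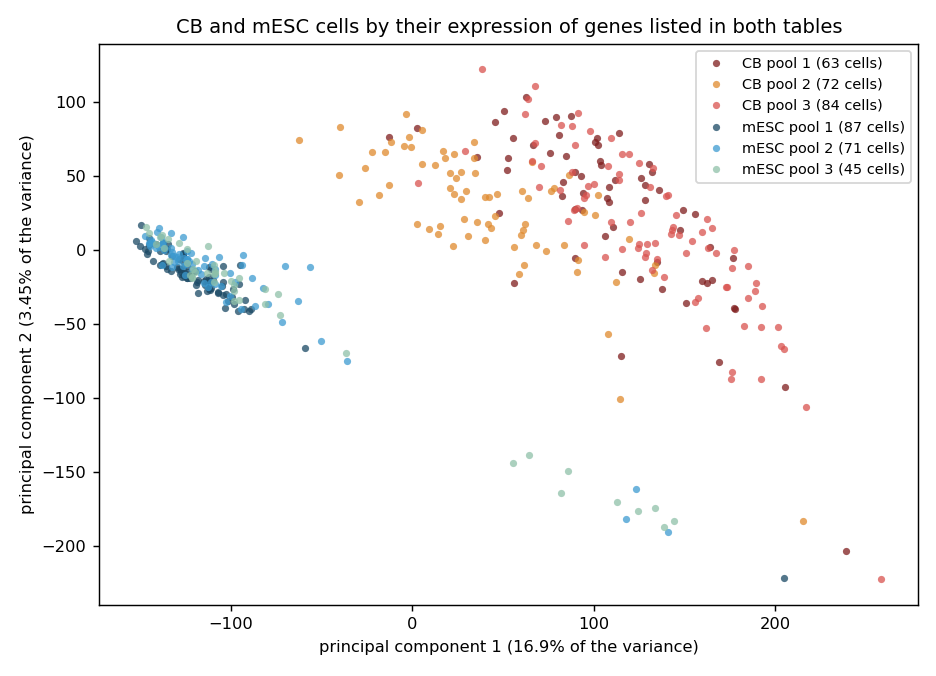
The 219 CB and 203 mESC cells on the first (16.9% of the variance) and second (3.45%) principal component of log2(CPM + 1) over 16019 genes, coloured by pool. Most mESC cells form a compact group at the left, CB cells are spread on the right with pool 2 nearest to mESC, and the 13 mESC cells lowest on the second component are the 13 in which mitochondrially encoded genes held 30% or more of the counts.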

How the data were processed

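Single-cell RNA was measured with a full-length, polyadenylation-based chemistry on a microfluidic chip. Per the labels and the study's methods, the authors aligned reads to GRCm38 (mm10) with STAR 2.7 in Partek Flow, and deposited expected counts (estimated counts that need not be whole) per gene and cell for CB and mESC, with no scaling: 24.6% and 24.3% of values above 0 were over 0.01 from a whole number. How reads were assigned, and whether by strand, is not given in the sources used here. The table of the other culture, deposited as whole counts, served only to count cells, and 2 of its columns carry no sample.

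Cells with 100000 or more counts were kept, and counts were summed per sample and per pool, taken from the column names. Each table was assigned to the sample whose culture it names. A gene counted as compared at 1 CPM or more in either sample, the pseudocount was 1 CPM and the limit 4-fold. Share intervals are exact Clopper-Pearson and level intervals exact Poisson on summed counts, both at 95%. Reads carry no molecular identifiers, so the level intervals cover error in counting reads and not molecules. Neither kind of interval covers differences between pools or cultures. With 1 sample per group no test was made. The recovery of known folds by the scripts was checked on simulated Poisson counts. In these, cells of a sample differed in depth only and pools did not differ, so the check covers the calculation and not calls in mixed cells. Doublets were not called here. Chambers were viewed by microscope in the study, but the tables do not mark the cells recorded as multiple. Pairs of cells and detection are descriptions over cells that share a sample. Coordinates and biotypes came from GENCODE M21, for 15717 of the 16019 genes by unique symbol, and promoter windows from RefSeq. Python 3.11.15 with numpy 2.4.6, pandas 2.3.3 and scipy 1.17.1 was used, and R 4.3.3 with edgeR 4.0.16 (TMM) and DESeq2 1.42.0 (size factors) on rounded sums.

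The gene lists and markers were chosen with earlier results of these data known. Named genes were the 5 markers, the 15 highest and 15 lowest ratios among genes detected in 25% or more of cells of the sample with the higher level, with separate pools and the same sign when cells weigh the same, up to 5 members of each list with the largest ratio in size and those past 4-fold against its median, the 10 higher genes of 50 or more CPM with the steepest drop from the highest to the next CB pool, the 10 genes of 50 or more CPM in both with the smallest ratio, the 10 highest per kb in each sample, the 10 highest that 1 table lists, and members a list's description turns on. Some genes that met these rules are not reported here.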

Additional observations from a re-analysis of the deposited data

How the results depend on the processing

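More genes were higher in CB (2140) than lower (604), as under each alternative run. With a pseudocount of 0.1 CPM there were 3223 higher and 964 lower genes, and with 10 CPM 604 and 217, since the pseudocount sets which low genes can reach 4-fold. Leaving out 1 pool at a time gave 1910 to 2304 higher and 585 to 1025 lower genes, the latter extreme without CB pool 2. TMM gave 1795 and 824 and DESeq2 size factors 1812 and 809. The same weight for every cell, a filter of 10 CPM, no filter, all cells, cells of 500000 or more counts, totals without mitochondrial and the most abundant genes, and each gene without its highest cell gave 1687 to 2236 and 502 to 727. Higher calls made up 78.0% of all calls, and 68.5% to 78.3% under the alternatives. An alternative chosen after seeing the data, without cells of 30% or more mitochondrial counts, gave 2170 and 620, of which 2125 and 603 were among the main calls. Median genes per cell were 5176 in CB and 7260 in mESC, 6745 and 9582 unthinned, and 3605 and 4142 at 5 or more counts. The named genes past 4-fold whose sign turned were Plvap (-0.30), Apom (-3.56), Apoc2 (-1.51), Apoa2 (-2.67) and Gm36936 (-2.69) without CB pool 2, against 5.45, 3.82, 5.56, 4.94 and 2.95 without CB pool 3, the other end of their ranges, and Gm36936 (-1.38) without its highest cell in each sample. Named genes with ratios just above 0 also turned under TMM and DESeq2 factors. The cause was not tested. Of the other values, 668 list medians and 4153 named ratios moved by less than 1 SD over the 9 pairs of pools, and 88 and 271 by more. No paired analysis was possible because pools are numbered within each sample, no column has a replicate number, and there was no test. Depth limits the shares of cells that detect low genes.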

Other observations

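Part of the antigen presentation and innate immune genes were higher in CB. B2m, the invariant chain of MHC class I, had 594, 174 and 574 CPM in the CB pools and 13.5, 14.1 and 9.71 CPM in the mESC pools, and was detected in 90.9% and 47.8% of cells. H2-D1, a class I heavy chain, had 83.9 against 6.72 CPM (log2 ratio 3.46), and Tap1, of the peptide transporter, 11.8 against 0.51001 CPM (log2 ratio 3.09). Of 14 members of this list 7 were higher, 6 with separate pools. Summed over the members each table lists, 4 of them listed for CB alone, the CB pools held 2650.4, 663 and 3275 CPM and the mESC pools 1215, 1505 and 1341 CPM. CB pool 2 thus lay below every mESC pool. Of 11 complement and chemokine genes 8 were higher, 5 with separate pools, and their median was above 0 in 7 of 9 pairs of pools. Runx1, known from blood and from mesenchyme, had 75.3 against 0.419 CPM (log2 ratio 5.75), but the list as a whole was seen in few cells: at least 50% of 18 blood and macrophage genes reached 10 counts in 3 CB cells (5 mESC cells by the 6 genes listed there), and 1 cell held 27.5% of their counts. Of 18 lysosomal genes 5 were higher, and 4 with TMM scaling (13.4% of all genes were higher), led by Ctsk, cathepsin K, at 54.2, 5.72 and 194 CPM. Of 9 neuroectoderm genes 3 were higher and 1 was lower (13.4% and 3.77% of all genes were). Sox11 had 217 against 3.13 CPM (log2 ratio 5.72), and Stmn2, a protein of neurons, was higher in the stem cells, with 18.2 against 208 CPM (log2 ratio -3.44). Of 9 epicardial genes 6 were higher, with Aldh1a2, which makes retinoic acid, at 38.4, 0 and 55.02 CPM in the CB pools.

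Some genes had nearly the same level in both samples. The 10 genes of 50 or more CPM in both samples with the smallest ratios had log2 ratios under 0.01 in size and overlapping pools, among them Rab7, a GTPase of late endosomes, at 274 and 274 CPM, and Ctnna1, alpha-catenin, at 269 and 268 CPM. Rab7 was detected in 91.3% of CB cells and 97.5% of mESC cells. By kind of gene, 15.5% of 12998 protein-coding genes were higher and 3.91% lower, against 7.94% and 8.33% of 252 lincRNAs and 0.382% and 1.30% of 1308 processed pseudogenes, whose reads can be shared with their parent genes. The 10 highest levels per kb of exon in each sample were mostly mitochondrial transcripts and their copies: mt-Co1 had 11510.4 against 14789.7 CPM (log2 ratio -0.36), and Gm28437 9087 against 8664 CPM (log2 ratio 0.07). Gm37376 was higher, with 2687 against 597 CPM (log2 ratio 2.17), and its reads too can be shared with near copies.

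A small set of cells stood apart by mitochondrial share. In 5 CB cells (1, 2 and 2 of the pools) and 13 mESC cells (1, 3 and 9), mitochondrially encoded genes held 30% or more of the counts, with medians of 43.0% and 44.4%, against 5.35% and 3.74% in the other cells. The 13 mESC cells detected a median of 4434 genes and the other 190 cells 9681. Of mESC pool 3, 9 of 45 cells were of this kind.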
